A study of Mus musculus with 4 samples.

Results

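The 10 genes described here are markers and working parts of alternative macrophage activation: the interleukin receptor chain gene Il4ra, the transcription factor gene Irf4, the signalling inhibitor gene Socs2, the effector genes Arg1, Retnla and Chil3, the enzyme genes Alox15 and Tgm2, the checkpoint ligand gene Pdcd1lg2 and the matrix gene Fn1. They were named as a list and looked up by symbol among 19505 genes with 1 named probe set each (the brightest, where a gene had several); all 10 were found, each with a single probe set. RNA was measured on 1 Affymetrix array per culture in bone marrow-derived macrophages of 2 Hem1 KO mice and 2 WT mice. Hem1, encoded by Nckap1l, is the blood-cell subunit of the WAVE complex, which drives the branching of actin. Femoral marrow of both genotypes was grown for 8 days in RPMI medium with serum and L929-conditioned medium, a source of the growth factor CSF1, and the labels give no treatment, so interleukin 4 (IL-4) is not among the stated additions. The part of the gene that was removed, the cells it was removed from, and the strain, age and sex of the mice are not given in the sources used here.

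Alternative activation is the state that macrophages enter when IL-4 or IL-13, cytokines of T helper 2 cells, basophils and eosinophils, bind a receptor that contains the IL-4 receptor alpha chain. Kinases of the JAK family then phosphorylate the transcription factor STAT6, which switches on arginase 1, resistin-like molecule alpha and the chitinase-like protein Ym1 (Chil3) in mouse cells. Macrophages grown in CSF1 alone carry the receptor and STAT6 but have little of these effectors until the cytokine is added.

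The promoters are shown because the genes of this set are known chiefly by their response to STAT6, which binds the letters TTC and GAA with 4 bases between them and, like other STAT factors, also with 3. RefSeq promoter sequences (GRCm38.p6, 250 bases before to 50 after the annotated start) matched 5 of the 10 genes. Searched for TTCNNNNGAA and TTCNNNGAA, which read the same on both strands, 3 of these 5 held a match, against 6.95% of 32851 promoters for the longer motif, 8.30% for the shorter one and 14.6% for either. The 3 promoters follow, 5′ to 3′ on the gene's own strand, with the matched bases in capitals. A match is a description of the letters, and binding was not measured.

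Retnla, chr16:48842359-48842658, plus strand: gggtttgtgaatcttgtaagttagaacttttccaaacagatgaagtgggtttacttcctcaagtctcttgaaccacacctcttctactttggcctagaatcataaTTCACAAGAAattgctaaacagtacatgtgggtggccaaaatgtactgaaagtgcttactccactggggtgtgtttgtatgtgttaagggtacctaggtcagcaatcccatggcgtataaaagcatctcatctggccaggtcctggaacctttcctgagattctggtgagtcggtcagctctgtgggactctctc

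Chil3, chr3:106167515-106167814, minus strand: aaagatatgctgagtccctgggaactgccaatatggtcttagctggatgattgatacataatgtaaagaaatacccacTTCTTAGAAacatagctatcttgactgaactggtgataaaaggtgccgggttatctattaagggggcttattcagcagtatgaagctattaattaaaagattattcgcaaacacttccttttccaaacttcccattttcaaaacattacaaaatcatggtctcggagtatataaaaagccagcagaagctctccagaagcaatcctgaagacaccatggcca

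Pdcd1lg2, chr19:29410669-29410968, plus strand: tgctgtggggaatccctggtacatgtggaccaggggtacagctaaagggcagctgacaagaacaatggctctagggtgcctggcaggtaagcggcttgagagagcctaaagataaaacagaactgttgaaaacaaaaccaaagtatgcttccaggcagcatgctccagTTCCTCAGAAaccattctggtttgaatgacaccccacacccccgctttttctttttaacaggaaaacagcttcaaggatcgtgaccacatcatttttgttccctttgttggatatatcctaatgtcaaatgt

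In Retnla the match TTCACAAGAA starts 145 bases before the annotated start. The Pdcd1lg2 match TTCCTCAGAA, also with 4 bases between TTC and GAA, starts 82 bases before it. The Chil3 match TTCTTAGAA has 3 bases between them and starts 172 bases before the start. The windows of Il4ra and Irf4 held neither motif.

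Values are log2 signals from RMA, which corrects background, normalizes and summarises the probes, so a difference of 1 is a 2-fold change. A gene was taken as above background where it exceeded 95% of 1448 chemosensory receptor genes (for smell, pheromones and taste, which macrophages are not known to use) on that array, a level of 6.04 and 5.38 on the Hem1 KO arrays and 5.88 and 5.51 on the WT arrays. The arrays correlated at 0.966 to 0.986 across genes. Nckap1l read 10.04 and 9.62 on the Hem1 KO arrays, against 11.37 and 11.11 on the WT arrays (difference -1.41, SE 0.32, adjusted p = 0.0467 by limma). This call was lost without WT replicate 1 (adjusted p = 0.381), WT replicate 2 (0.128) or Hem1 KO replicate 2 (0.0874), and among genes above background on at least 2 arrays (0.0868). Whether its probes lie in the removed part is not given, so this value checks the labels only in part. The labelled cell type was present in every culture: all 8 measured macrophage markers, including Adgre1, Csf1r and Lyz2, lay above background on all arrays.

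None of the 10 genes passed the test. Limma, fitted to all 19505 genes with Benjamini-Hochberg adjustment and a threshold of 0.05, called 0 of the 10 higher and 0 lower in Hem1 KO macrophages, against 1.48% of all genes higher and 0.133% lower. Without adjustment, at p under 0.05, 1 of the 10, Fn1, was higher and 0 were lower, against 3.63% and 1.57% of all genes. The median difference of the 10 was 0.36 (Hem1 KO minus WT, log2), beside 0.01 over all genes. Above 0 lay 8 of the 10 differences, and 10113 of those of all 19505 genes. The 8 include Socs2, Arg1 and Retnla, which were below background on every array. The smallest difference of any called gene in either direction was 1.39, and every one of the 10 differences was smaller than that. Each comparison rests on 2 mice per genotype, and the smallest p that an exact two-sided permutation test could reach with so few is 0.333.

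**Figure D1:**
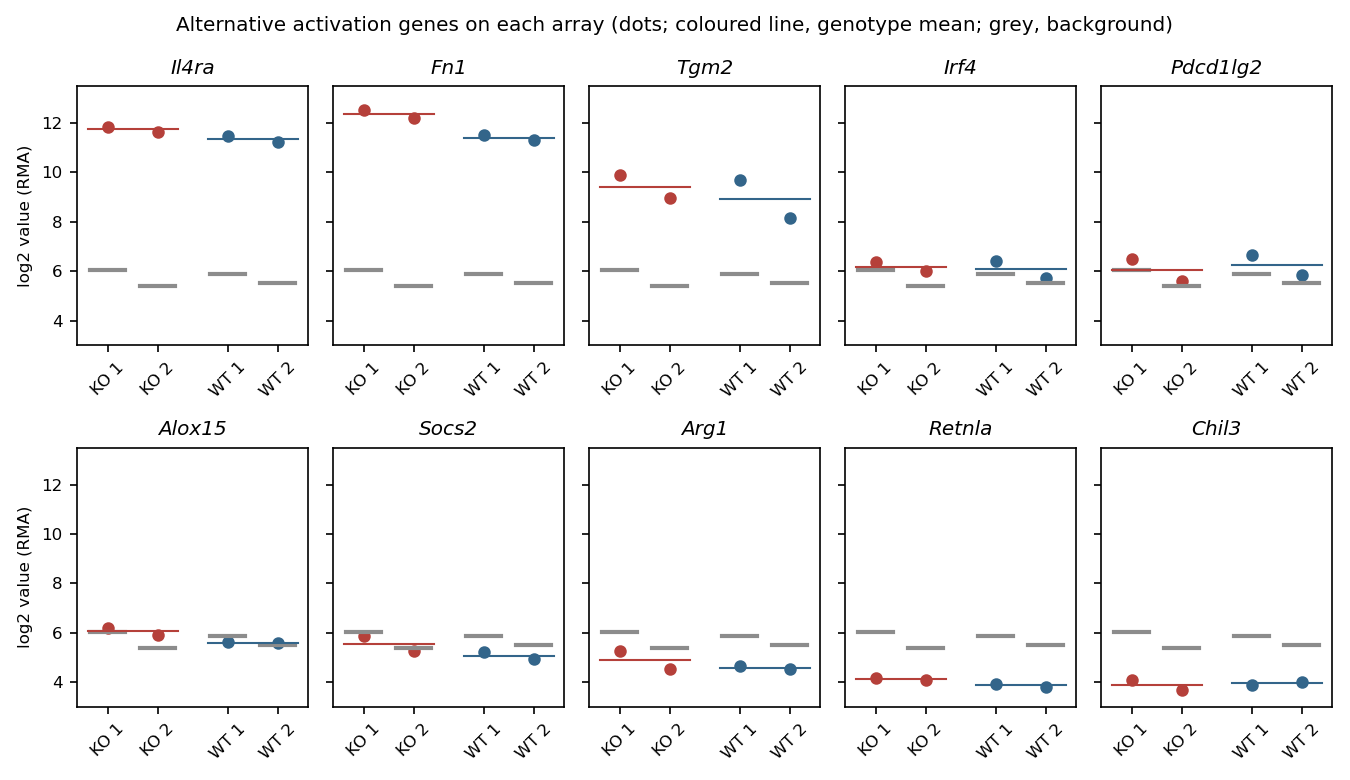
Log2 value (RMA) of each of the 10 genes on the 2 Hem1 KO arrays (left, red) and the 2 WT arrays (right, blue), with each genotype's mean as a coloured line and the array's background level as a grey line. Il4ra, Fn1 and Tgm2 lie well over background on every array, Irf4 and Pdcd1lg2 just over it, Alox15 at its edge, and Socs2, Arg1, Retnla and Chil3 under it.

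The genes fell into a measured and an unmeasured group. On all 4 arrays 5 genes lay above background (Il4ra, Fn1, Tgm2, Irf4 and Pdcd1lg2), Alox15 did so on 3, and the remaining 4 (Socs2, Arg1, Retnla and Chil3) on none. The split depends on the background chosen: against the 95th percentile of 5222 negative control probe sets, which was 8.04 to 8.94, 3 of the 10 genes lay above it on any array.

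Il4ra, the chain that the IL-4 and IL-13 receptors share, read 11.84 and 11.64 on the Hem1 KO arrays, against 11.47 and 11.22 on the WT arrays. The groups did not overlap, but the difference of 0.39 (SE 0.31) did not pass the test, with a 95% confidence interval of -0.28 to 1.07 (adjusted p = 1 by limma). Il13ra1, its partner in the receptor for IL-13, read 8.52 and 7.95 in Hem1 KO, against 7.95 and 7.81 in WT macrophages. Stat6 itself read 11.03 and 11.27 in Hem1 KO, against 11.46 and 11.34 in WT macrophages (difference -0.25, SE 0.31, adjusted p = 1 by limma), without overlap. The cytokine gene Il4 lay below background on all 4 arrays. Il13 read 7.82 and 7.04 in Hem1 KO, against 7.45 and 7.23 in WT macrophages. These values were above background on all 4 arrays but below the level of the negative control probe sets. Il4, Il13, Il13ra1 and Stat6 were picked for naming after their values were seen.

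Of the 14 measured genes of IL-4 and IL-13 signalling, limma called 1 higher and 0 lower, with a median difference of 0.03. The called gene was Irs1, an insulin receptor substrate that also docks to the IL-4 receptor. Irs1 read 9.68 and 9.64 in Hem1 KO macrophages, against 5.68 and 5.24 in WT macrophages, where it was at or below background, so it was at least 15.6-fold higher (adjusted p = 5.66e-05 by limma). The bound divides the Hem1 KO mean by a WT mean in which no array counts as lower than its background level. It depends on the background chosen: with the negative control level, 8.94 and 8.23 on the WT arrays, it would be smaller. The stromal cell markers moved with it: of 9 measured, 6 were called higher and 0 lower, and their mean log2 level was 8.86 and 8.27 in Hem1 KO, against 7.24 and 6.72 in WT cultures. Their part in the value of Irs1 was not tested.

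The transcription factor gene Irf4, which acts downstream of IL-4 in mouse macrophages, read 6.35 and 5.997 in Hem1 KO, against 6.42 and 5.72 in WT macrophages. The WT values bracket those of Hem1 KO. The difference was 0.11 (SE 0.34, interval -0.64 to 0.85), and after quantile normalization it was -0.01. Of its 7 measured paralogs in the interferon regulatory factor family limma called 0, and the median was -0.37. Before adjustment 0 were higher and 1 was lower at p under 0.05. That gene, Irf7, a driver of the type I interferon response, read 7.21 and 7.25 in Hem1 KO, against 10.62 and 7.18 in WT macrophages, so that its difference of -1.67 (adjusted p = 0.862 by limma) rests on WT replicate 1. The difference was 0.05 without that array and between -3.39 and -1.65 without any 1 of the others. Irf7 was called with limma-trend, where its SE was 0.343 in place of 0.738. Irf2, next by p, read 8.82 and 8.48 in Hem1 KO and 9.24 and 8.92 in WT macrophages.

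Socs2, an inhibitor of JAK-STAT signalling best known for restraining the growth hormone receptor, lay below background on all arrays, so no fold is given. It read 5.88 and 5.24 on the Hem1 KO arrays, against 5.23 and 4.91 on the WT arrays. The groups did not overlap, but by a margin of less than 0.01, and the difference of 0.49 had an interval of -0.24 to 1.22 (adjusted p = 1 by limma). Of 7 other genes of the family, limma called 0, none had an unadjusted p under 0.05 (0 in either direction), and the median was -0.19. Their member with the smallest p was Socs5, at 7.83 and 7.16 in Hem1 KO and 7.34 and 6.63 in WT macrophages.

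The 3 effectors most often used to mark the state in mice, Arg1, Retnla and Chil3, were at background in both genotypes. Arg1, which turns arginine into ornithine and urea, read 5.27 and 4.52 in Hem1 KO, against 4.64 and 4.52 in WT macrophages. One Hem1 KO array stood over the rest, and the difference of 0.32 was -0.06 without it. Retnla, a secreted protein of the resistin family, read 4.18 and 4.10 on the Hem1 KO arrays, against 3.93 and 3.81 on the WT arrays. These groups did not overlap as deposited, but did once each array was centred on its median. Chil3, a secreted chitin-binding lectin, read 4.07 and 3.67 on the Hem1 KO arrays, against 3.88 and 4.02 on the WT arrays, with the groups overlapping. None of the 3 rose above background in either genotype. A change that stayed below background could not be seen, and an absence of the transcripts is not shown.

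Few relatives of these effectors were measurable. Among 7 resistin-like and chitinase-like paralogs limma called 0, and 0 had an unadjusted p under 0.05. On all arrays 4 of the 7 lay below background, among them Chil4, a near relative of Chil3. Among 12 measured genes of arginine and polyamine metabolism limma called 0, and the median was -0.01. Before adjustment 1 was higher and 1 lower at p under 0.05. The higher one was Srm, which makes spermidine, at 10.22 and 9.67 in Hem1 KO, against 9.33 and 8.94 in WT macrophages (difference 0.81, SE 0.34, adjusted p = 0.719 by limma), and it passed with limma-trend (adjusted p = 0.0401). The lower one was Azin1, which keeps ornithine decarboxylase from being degraded, at 8.73 and 8.14 in Hem1 KO, against 9.37 and 9.26 in WT macrophages (difference -0.88, SE 0.33, adjusted p = 0.542 by limma). Nos2, the enzyme that competes with arginase for arginine, lay below background on all arrays and was named for that after its values were seen.

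Alox15, the 12/15-lipoxygenase that oxidises polyunsaturated fatty acids, read 6.21 and 5.92 in Hem1 KO, against 5.60 and 5.57 in WT macrophages. Both Hem1 KO arrays were above background and above both WT arrays, of which 1 was above background. The difference of 0.48 (SE 0.31, interval -0.20 to 1.15) did not pass the test (adjusted p = 1 by limma). Of 13 measured lipoxygenase and eicosanoid genes limma called 0, and the median was 0.02. Before adjustment 2 were higher and 0 lower at p under 0.05. These were Pla2g4a, the phospholipase that frees arachidonic acid (8.10 and 8.49 in Hem1 KO, against 7.21 and 7.42 in WT macrophages, adjusted p = 0.322 by limma), and the 5-lipoxygenase gene Alox5. Alox5 read 7.58 and 7.93 in Hem1 KO, against 6.82 and 6.98 in WT macrophages (adjusted p = 0.532 by limma).

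Tgm2, a transglutaminase that cross-links proteins and marks alternatively activated macrophages of mouse and human, varied most over the 4 arrays. It read 9.88 and 8.97 in Hem1 KO, against 9.71 and 8.16 in WT macrophages, a range of 1.72. The replicates of a genotype differed more than the genotypes did: the difference between genotypes was 0.49 (SE 0.47, interval -0.52 to 1.50, adjusted p = 1 by limma), and -0.28 without WT replicate 2. Replicate 1 exceeded replicate 2 by 0.91 in Hem1 KO and by 1.55 in WT cultures, while the median over all genes was 0.38 and 0.28.

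Genes of inflammatory activation were also higher on the arrays numbered 1 than on those numbered 2. The 13 measured classical activation genes averaged 6.83 and 5.55 on Hem1 KO replicates 1 and 2, against 6.68 and 5.56 on WT replicates 1 and 2. Il1b, the interleukin 1 beta gene, read 11.36 and 7.80 in Hem1 KO and 11.81 and 8.38 in WT macrophages, and the prostaglandin synthase gene Ptgs2 read 9.78 and 6.17 in Hem1 KO and 9.66 and 6.08 in WT macrophages. Both were picked after their values were seen. Limma called 0 of the 13 (median 0.10). Before adjustment 1, Il12a, was higher and 0 were lower at p under 0.05, and Il12a lay below background on all arrays. The part of this split in the spread of Tgm2 was not tested. The 3 genes whose centred profile over the 4 arrays was nearest to that of Tgm2 were Cx3cl1, Fas and Bcl3, at root-mean-square distances of 0.10 to 0.12. Of 7 other transglutaminases limma called 0, and 0 had an unadjusted p under 0.05. Tgm1, with the smallest p of them, read 7.67 and 7.38 in Hem1 KO and 7.23 and 6.80 in WT macrophages.

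Pdcd1lg2, which encodes PD-L2, a ligand of the inhibitory T cell receptor PD-1, was also split by replicate number. It read 6.50 and 5.61 in Hem1 KO, against 6.65 and 5.83 in WT macrophages. The groups overlapped, and the difference was -0.18 (SE 0.39, interval -1.02 to 0.66, adjusted p = 1 by limma). The nearest profiles over the 4 arrays were those of Noc2l, Catsperg2 and the olfactory receptor gene Olfr457, one of the genes that set the background, at distances of 0.01 to 0.02. The other PD-1 ligand gene, Cd274, read 9.89 and 7.70 in Hem1 KO, against 10.54 and 9.15 in WT macrophages (difference -1.05, SE 0.59, adjusted p = 1 by limma). Its difference was 0.05 without Hem1 KO replicate 2 and -2.14 without Hem1 KO replicate 1. Without WT replicate 1 it was -0.35, and without WT replicate 2 it was -1.74. Cd274 was called with limma-trend, where its SE was 0.263. Of 10 measured genes of the PD-1 and B7 families limma called 0 (median 0.08). Before adjustment 0 were higher and 1 was lower at p under 0.05: the T cell costimulatory receptor gene Cd28, at 7.31 and 6.91 in Hem1 KO and 9.46 and 7.45 in WT macrophages.

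Fn1 came closest to the threshold. It encodes fibronectin, a matrix glycoprotein that cells grip through integrins, and it read 12.51 and 12.20 in Hem1 KO, against 11.51 and 11.30 in WT macrophages. Both Hem1 KO values exceeded both WT values, and the gap between the groups was wider than that between replicates. The mean was 12.36 ± 0.22 in Hem1 KO and 11.41 ± 0.15 in WT macrophages (SD, n = 2 each), a difference of 0.95 (SE 0.32, interval 0.27 to 1.63) or 1.93-fold, with an unadjusted p of 0.0102 and an adjusted p of 0.352 by limma. In all, 542 genes, or 2.78%, had a difference at least as large, 346 of them above background on every array.

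Whether Fn1 was called depended on the processing. It did not pass when any single array was left out (differences of 0.79 to 1.10) or when arrays were centred on their medians (0.85, adjusted p = 0.116). It passed after quantile normalization (1.08, adjusted p = 0.0435 by limma). It also passed with a prior variance that follows intensity (limma-trend, adjusted p = 3.47e-08), where its SE was 0.15 in place of 0.32. The limma-trend calls given here rest on that prior, from genes of like signal, far more than on the spread between a gene's own arrays. The fit without trend also leaned on its prior, which held 11.2 of its 13.2 degrees of freedom, so the SE of 0.32 is not Fn1's own spread alone. Fn1 passed as well with the replicate number as a block, a fit whose values stand with the other alternatives. That fit also called Cd274, Pparg, Srm, Azin1, Pla2g4a and Alox5.

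**Figure D2:**
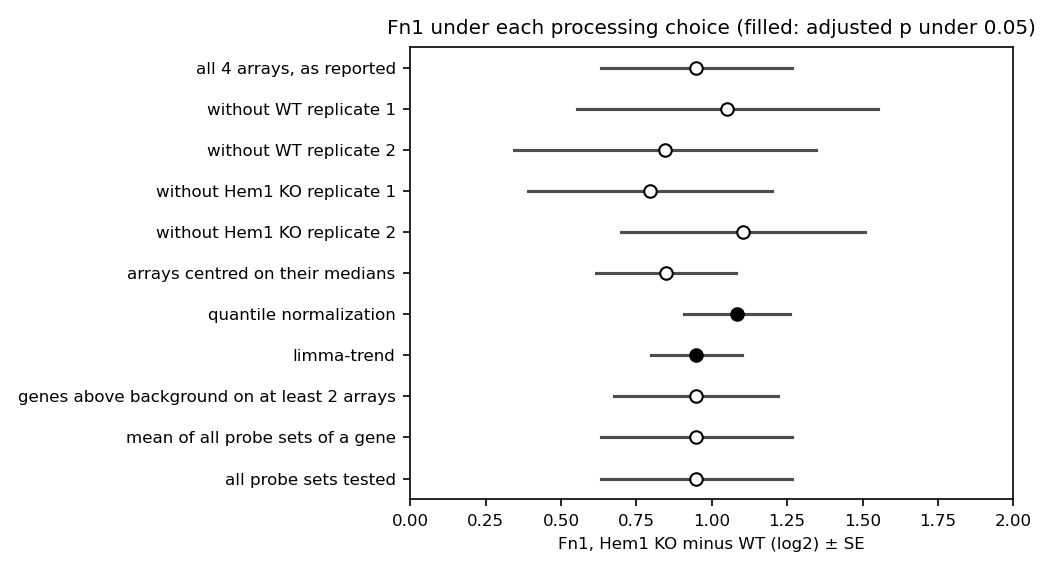
Difference of Fn1 (Hem1 KO minus WT, log2, with limma's SE as bars) with all 4 arrays and under 10 other processing choices; the fit with the replicate number as a block, which also calls Fn1, is not plotted. The plotted differences lie between 0.79 and 1.10, and those after quantile normalization and with limma-trend are called (filled points).

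Beside Fn1, the stromal markers named with Irs1 were higher in Hem1 KO cultures. Fibroblasts and other stromal cells make fibronectin too, and in a bulk culture more cells of a type and more RNA per cell cannot be told apart. The called markers were Pdgfrb (5.14-fold), Cxcl12 (4.17-fold), Col1a1 (3.92-fold), Col1a2 (3.83-fold), Acta2 (3.37-fold) and Col3a1 (2.96-fold), while Lum and Thy1 lay below background on all arrays. Without WT replicate 2, Acta2 (adjusted p = 0.165), Col1a2 (0.108) and Col3a1 (0.674) were no longer called by limma. Among the brighter genes alone, Col1a2 (adjusted p = 0.0856) and Col3a1 (0.098) were not called either. The part of stromal cells in the value of Fn1 was not tested. Of 9 fibronectin receptors and partners limma called 1 higher and 0 lower, with a median of -0.03. This was Tnc, a matrix protein that binds fibronectin, at 11.93 and 11.49 in Hem1 KO, against 9.98 and 9.83 in WT macrophages (3.49-fold, difference 1.80, SE 0.32, adjusted p = 0.00929 by limma). The profiles nearest to Fn1 over the 4 arrays were those of C2, which lay below background on all arrays, Vcl and Rasal2, at distances of 0.02 to 0.04.

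By overlap alone, 5 of the 10 genes had both Hem1 KO arrays over both WT arrays (Il4ra, Fn1, Alox15, Socs2 and Retnla), against 12.5% of all genes, and 0 had both below, against 13.3%. Socs2 and Retnla were at background. With each array centred on its median, 4 of the 10 remained apart, against 12.3% of all genes, since Retnla then overlapped. Centring lowered every difference by 0.10.

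**Figure D3:**
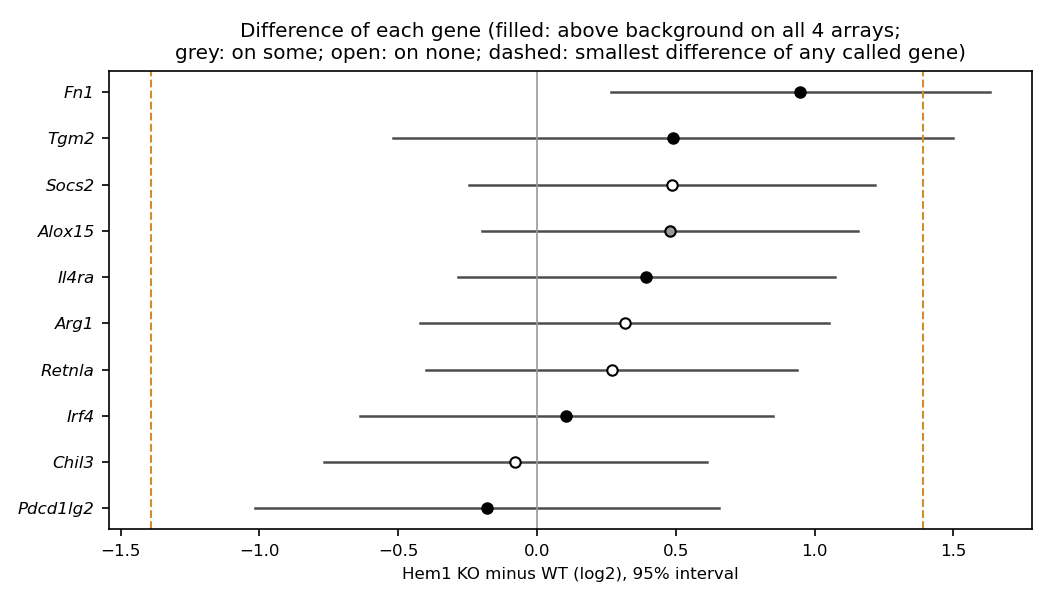
Difference of each gene (Hem1 KO minus WT, log2) with its 95% confidence interval from limma, filled where the gene lies above background on all 4 arrays, grey on some and open on none. Dashed lines mark 1.39, the smallest difference of any gene called. The interval of Fn1, 0.27 to 1.63, is the one that leaves out 0.

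Among 20 further alternative activation genes, limma called 0 higher and 1 lower, and the median difference was -0.06. Before adjustment 0 were higher and 2, Egr2 and Pparg, were lower at p under 0.05. The called gene was Egr2, an early growth response factor that IL-4 induces, at 8.82 and 7.84 in Hem1 KO, against 10.01 and 10.93 in WT macrophages (4.42-fold lower, difference -2.14, SE 0.40, adjusted p = 0.0132 by limma). Its call ended without WT replicate 2 (-1.69, adjusted p = 0.0593), after quantile normalization (adjusted p = 0.0978) and among the brighter genes alone (adjusted p = 0.0896). Pparg, a lipid-sensing nuclear receptor, read 9.37 and 8.56 in Hem1 KO, against 10.25 and 9.52 in WT macrophages (difference -0.92, SE 0.38, adjusted p = 0.691 by limma), and passed with limma-trend (adjusted p = 0.0141). Mrc1, the mannose receptor, read 11.76 and 11.46 in Hem1 KO, against 11.98 and 11.61 in WT macrophages, with the groups overlapping. Pparg, Mrc1 and the cell markers named only as above or below background were picked after their values were seen.

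**Figure D4:**
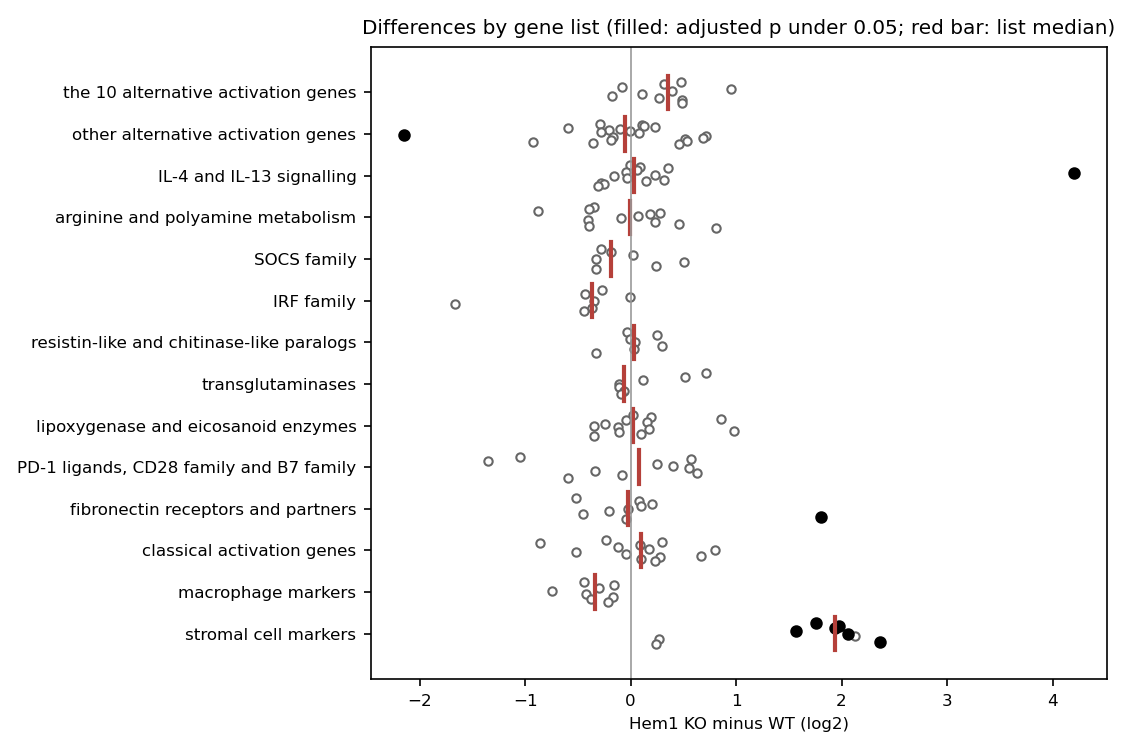
Difference of each gene (Hem1 KO minus WT, log2) in 14 gene lists, with called genes filled and the list's median as a red bar. The 10 alternative activation genes lie between -0.18 and 0.95 with none called, while 6 of 9 stromal cell markers are called higher.

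Macrophage markers and markers of cells that make IL-4 or share genes with the set were also read. Limma called 0 of the 8 macrophage markers (1, Fcgr1, was lower at an unadjusted p under 0.05), and all 8 differences lay under 0 (median -0.34). Over all genes 10113 of 19505 differences lay above 0. Fcgr1, with a difference of -0.74, was called lower with limma-trend (adjusted p = 0.000749). Of 10 basophil and mast cell markers 1 was called higher, the basophil protease gene Mcpt8 (10.07 and 9.52 in Hem1 KO, against 5.89 and 5.22 in WT cultures). Prss34, Kit and Tpsb2 lay above background on all 4 arrays and were not called. The remaining 6 of the 10, among them Cpa3, Fcer1a and Ms4a2, lay below background on all arrays. Of 7 eosinophil markers 1 was called lower, the chemokine receptor gene Ccr3 (3.05-fold lower). Of these 7, 3 lay above background on at least 1 array, with Ccr3 and Prg3 above it on all 4, and Epx and Prg2 on none. The call of Ccr3 was lost without WT replicate 2 (adjusted p = 0.144 by limma), without Hem1 KO replicate 1 (0.0651), after quantile normalization (0.118) and among the brighter genes alone (0.0694). Of 9 neutrophil markers 1 was called lower, the collagenase gene Mmp8 (4.62-fold lower). Of these 9, 5 lay above background on at least 1 array, with Mmp8 and Elane above it on all 4, and Ngp and Ltf on none. Limma called 0 of 8 dendritic cell markers, 0 of 7 serous cavity macrophage markers and 0 of 8 lymphocyte markers, with 0, 1 (Selp) and 0 at an unadjusted p under 0.05.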

How the data were processed

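Per the submitters' processing notes, the authors made the deposited log2 values with RMA; the sources used here name no version, settings or genome build. The values were used as they stand. Of 29129 rows, 19572 name 1 gene in the platform annotation, and the brightest probe set of each gave 19505 genes. The fit used limma 3.58.1 under R 4.3.3 (lmFit, then eBayes; genotype as the only term, two-sided, Benjamini-Hochberg over all 19505 genes, called at an adjusted p under 0.05), with 11.2 prior degrees of freedom. The fit was tested in 10 runs on simulated arrays in which 200 genes were changed. It called 4% of the genes raised by 1 on the log2 scale. The share was 87% of those raised by 2, 100% of those raised by 3 and 85% of those lowered by 2. Noise was drawn independently for each array from the fit's own prior variance, without the replicate differences seen in the real arrays. The shares describe that simulation and may not hold for these data.

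The 10 genes and the comparison lists were chosen with earlier results of these data known. Of 205 listed genes, 16 were not analysed here. Named are the 10 genes, Nckap1l, the called genes of each list (up to 6), otherwise up to 3 with the smallest p, paralogs, and, for the 3 genes of widest range, the 3 nearest profiles by root-mean-square distance; others are marked as picked after their values were seen. Arrays have no read depth, and their number limits the precision.

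Alternatives left out each array, added the replicate number to the fit, centred the arrays on their medians, applied quantile normalization, let the prior follow intensity, dropped dim genes, averaged or kept all probe sets, or changed the threshold or the background.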

Additional observations from a re-analysis of the deposited data

How the results depend on the processing

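The number of the 10 genes called lower stayed at 0 under every alternative run. The number called higher was 0 except with a replicate block, after quantile normalization and with limma-trend, where it was 1, Fn1, each time. Against negative control probe sets, 3 of the 10 were above background, in place of 6. The median difference of the 10 ran from 0.10 to 0.56. Of 106 values of the 10 genes under alternatives, 8 changed sign, none of them called. With 1 array left out, the difference of Arg1 ran between -0.0555 and 0.69, of Chil3 between -0.28 and 0.12, of Pdcd1lg2 between -0.62 and 0.26, of Irf4 between -0.25 and 0.46 and of Tgm2 between -0.28 and 1.26. Quantile normalization gave Irf4 -0.0093. Among the other named genes, leaving out 1 array took Mrc1 between -0.37 and 0.0033, Irf7 between -3.39 and 0.053 and Cd274 between -2.14 and 0.048. With an array left out, 1 genotype has a single array that is assumed to vary like the other. In these fits all named genes had the same SE, 0.5 without a WT array and 0.405 without a Hem1 KO array. A gene's own spread did not set its SE there, so calls gained or lost in these fits rest on that shared value.

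Over all genes, 288 were called higher and 26 lower. Leaving out 1 array gave 185 (without WT replicate 2) to 545 (without Hem1 KO replicate 2) higher and 26 (without WT replicate 1) to 101 (without Hem1 KO replicate 1) lower, with 53 and 54 lower in the remaining fits. Centring gave 70 lower, quantile normalization 16 lower, limma-trend 205 lower, and genes above background on at least 2 arrays 174 higher and 8 lower. The calls of Nckap1l, Egr2, Ccr3, Acta2, Col1a2 and Col3a1 were lost under 1 or more alternatives.

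The replicate number as a block gave 620 higher and 199 lower. It also called Fn1 (adjusted p = 0.0164 by limma, SE 0.215), Pla2g4a (0.0134), Cd274 (0.0168), Pparg (0.0204), Alox5 (0.0344), Azin1 (0.0348) and Srm (0.0456). Replicates with the same number deviated together at r = 0.24 across genes, but with 2 pairs the number is not shown to pair the cultures. The cause of these changes was not tested.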
